A study of Mus musculus with 6 samples.

Results

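The genes described here are the cyclins, cyclin-dependent kinases, centromere proteins, MCM proteins, kinesins, E2F factors and Aurora and Bub1 kinases of the mouse, together with Mki67 and Top2a. They were chosen by gene symbol among the rows annotated as protein-coding, and number 126 of 55401 genes in the deposited table. A symbol stem gathers proteins of unlike function, so the members were divided by textbook role. The 69 proliferation genes act in DNA replication, mitosis or their control. The 57 non-proliferation genes share a symbol stem but were assigned mainly to transcription, transport or other tasks. The division is not strict: in the deposited gene ontology terms, 10 of the 57 carried cell cycle and 9 cell division. The hearts of C57BL/6 mice aged 6 to 8 weeks were sequenced by RNA-seq, 1 library per heart, from 3 mice given angiotensin II (Ang II) and 3 control mice. No transgene or deletion is named for either group, and the dose and duration of Ang II are not given in the sources used here. Angiotensin II is a peptide hormone that raises blood pressure and is widely used to bring on cardiac hypertrophy and fibrosis in mice.

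Cyclins bind and activate cyclin-dependent kinases, and D and E cyclins carry a cell through G1 towards S phase by way of the pocket proteins and E2F factors, which switch on replication genes. A and B cyclins then drive S phase and mitosis, during which Aurora and Bub kinases and kinesin motors act on the spindle and on the kinetochores that assemble at centromeres. Cardiomyocytes of the adult mouse heart largely stop dividing after birth, so much of the dividing fraction in such hearts is known to lie in endothelial cells, fibroblasts and leukocytes.

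Libraries held 51202916 to 63564869 estimated counts in Ang II hearts, against 53583726 to 57844780 in control hearts, and mitochondrially encoded genes took 35.8% to 37.4% and 37.3% to 47.6% of them. The 126 members together took 0.150% to 0.195% of counts in Ang II hearts and 0.119% to 0.189% in control hearts. Markers of cardiomyocytes summed to 46742 to 54112 CPM (counts scaled to library size) in Ang II hearts and 41694 to 48030 CPM in control hearts, as the tissue label says. The library of Ang II replicate 1 stood apart. Its log2 CPM values correlated across genes with those of the other libraries at 0.902 to 0.910, against 0.943 to 0.965 between the other 5. When genes were ordered by the length of their longest annotated transcript and split in 3 equal classes, its median log2 difference from the control mean was 0.23 in the shortest class and −0.21 in the longest, whereas the other Ang II libraries lay between −0.02 and 0.00. Counts, medians and the leading genes are therefore given with and without it.

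Among the proliferation genes, levels were low in both groups. In FPKM, a unit that also divides by transcript length, 14 of 69 proliferation genes averaged at least 1 over the 6 libraries, against 29 of 57 non-proliferation genes, and the class medians were 0.195 and 1.18 FPKM. The proliferation genes over 1 FPKM were the D cyclins Ccnd1, Ccnd2 and Ccnd3, the G1 kinase Cdk4, the E2F factors E2f4, E2f5 and E2f6, the helicase subunits Mcm3, Mcm4, Mcm6 and Mcm7, and the centromere genes Cenpa, Cenpb and Cenpx. The S and M phase cyclins, mitotic kinesins, Aurora and Bub kinases, Mki67 and Top2a all averaged below 1 FPKM. The highest level of any member was that of Ccng1, a non-proliferation cyclin induced by p53, with 96.7 ± 4.94 FPKM in Ang II hearts and 65.8 ± 17.3 FPKM in control hearts (SD, n = 3 each). Over all 6 libraries it averaged 81.3 FPKM, followed by the transport kinesin Kif1c with 35.2 FPKM, the satellite-binding centromere protein Cenpb with 21.6 FPKM and Cdk2ap1 with 19.3 FPKM.

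**Figure D1:**
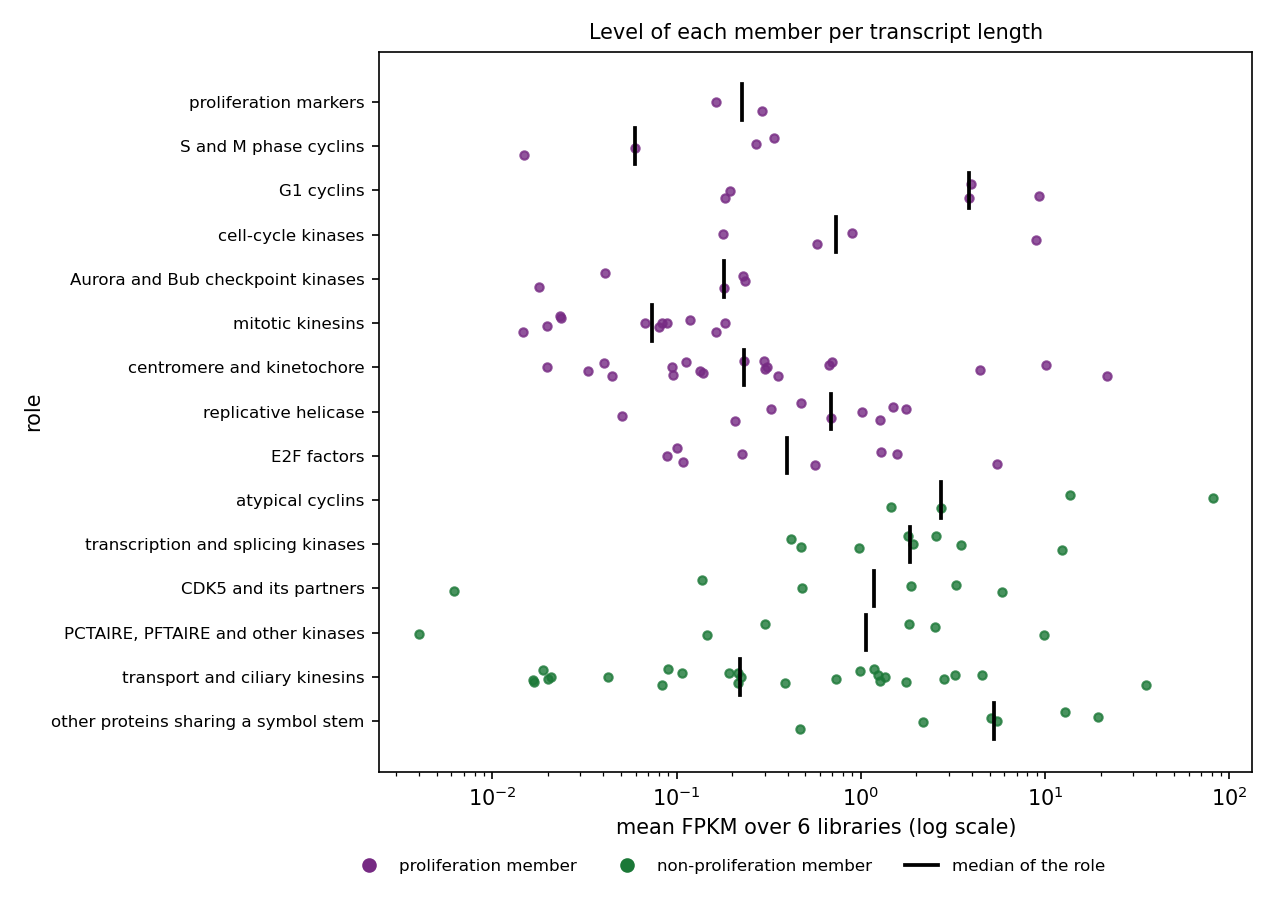
Mean FPKM of each member over the 6 libraries (horizontal log scale) by role (vertical), with a bar at the median of each role. The 4 members with 0 counts in every library are not drawn but enter the medians, and most proliferation roles have medians below 1 FPKM, with the G1 cyclins above it.

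No member passed the adjusted threshold in edgeR over the 6 libraries. Of the 126 members, 110 passed the filter on low counts and were tested, 62 proliferation and 48 non-proliferation genes. The 16 left out include the germ-cell cyclin Ccna1, Aurkc, Cenph, Cenpi, Cenpk and 7 kinesins, and 4 members (Ccnb3, Kif2b, Ccnb1ip1 and Kif12) had no count in any library. With edgeR's quasi-likelihood test and Benjamini-Hochberg adjustment over all 16759 genes tested, 0 of 110 members had an adjusted p under 0.05, where 0.0358% of all genes did, and the smallest was 0.118, that of Cenpf. Without adjustment, 4 members (3.64%) had a p under 0.05 and lay higher in Ang II hearts and 7 (6.36%) lay lower, against 3.57% and 3.94% of all genes tested. DESeq2 called Cenpa higher and Cenpf lower and no other member, where it called 0.949% of all genes higher and 0.698% lower (1.65% in all), and limma on log2 FPKM called none of the 55 members it covered (21 proliferation and 34 non-proliferation genes), which did not include Cenpf. The largest separations of the groups lay among the centromere genes, and in opposite directions.

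Cenpf, a large farnesylated kinetochore protein that binds microtubules and accumulates in G2 and mitosis, showed the clearest difference of any member. It had 2.88, 2.47 and 2.50 CPM in Ang II hearts, against 7.38, 11.8 and 8.27 CPM in control hearts. All 3 Ang II hearts lay close together and below every control heart, and the highest of them was under the lowest control by more than the whole Ang II range. The counts behind these levels were 125, 174 and 178 in Ang II hearts and 337, 785 and 455 in control hearts. Cenpf averaged 2.62 ± 0.224 CPM in Ang II hearts and 9.14 ± 2.33 CPM in control hearts (SD, n = 3 each), a log2 change of −1.81 (SE 0.23), or 3.50-fold lower. Its edgeR unadjusted p of 0.000127 ranked 18 among 16759 genes and gave an adjusted p of 0.118. Without Ang II replicate 1 edgeR put the change at −1.88 (SE 0.25), adjusted p 0.0478. With any other single library left out, the edgeR adjusted p of Cenpf was 0.241 to 0.555. Over all 6 libraries DESeq2 gave −1.80 with an adjusted p of 4.06e-08. The authors' FPKM values also separated the groups, with 0.144, 0.163 and 0.167 FPKM in Ang II hearts and 0.352, 0.805 and 0.506 FPKM in control hearts. Ang II replicate 1 was the highest Ang II heart in CPM and the lowest in FPKM. In whole tissue, fewer cells of a type and less RNA per cell cannot be told apart. The gene lies on the minus strand at chr1:189640606-189688086 (GRCm38), and a processed pseudogene, Gm37239, is annotated within its span on the opposite strand. The strandedness of the libraries is not given, so reads from opposite strands cannot be told apart here. The same limit holds for other members that overlap a protein-coding gene on the opposite strand, among them Ccna2, Cdk4, Ccnd3, Kif20a and Cdk10. On their own strand, protein-coding genes overlap Cenpb (Spef1), Cdk10 (Gm20388), Kif17 (Sh2d5) and Kif28 (Ahctf1).

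Cenpa, the histone H3 variant that marks the centromere, lay on the other side. It had 47.2, 33.8 and 30.2 CPM in Ang II hearts, against 17.6, 18.1 and 23.4 CPM in control hearts. Each Ang II heart was above each control heart, and Ang II replicate 1 was the highest. The log2 change was 0.91 (SE 0.22), 1.88-fold higher, with an edgeR adjusted p of 0.447 and a DESeq2 adjusted p of 0.0343. Without Ang II replicate 1 it was 0.70 with an edgeR adjusted p of 0.129.

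The start of both genes, and of the proliferation genes Mki67 and Cdk1, whose groups overlapped, is given as the 120 bases before the RefSeq transcription start (GRCm38.p6), 5′ to 3′ on the gene's strand. Capitals mark 2 motifs known from cell-cycle promoters, the CCAAT box (CCAAT or its reverse complement ATTGG) and the cell-cycle homology region (TTTGAA or TTCAAA), so that the motif content of genes with opposite values can be compared.
Cenpf, chr1:189688087-189688206, minus strand: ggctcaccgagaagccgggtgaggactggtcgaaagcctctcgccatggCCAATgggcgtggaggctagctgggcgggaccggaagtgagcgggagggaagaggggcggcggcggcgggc
Cenpa, chr5:30666766-30666885, plus strand: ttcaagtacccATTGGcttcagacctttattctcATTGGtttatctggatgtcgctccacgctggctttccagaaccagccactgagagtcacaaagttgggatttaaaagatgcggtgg
Mki67, chr7:135716380-135716499, minus strand: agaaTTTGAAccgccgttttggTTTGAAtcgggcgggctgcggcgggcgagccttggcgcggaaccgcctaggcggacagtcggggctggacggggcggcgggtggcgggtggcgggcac
Cdk1, chr10:69352913-69353032, minus strand: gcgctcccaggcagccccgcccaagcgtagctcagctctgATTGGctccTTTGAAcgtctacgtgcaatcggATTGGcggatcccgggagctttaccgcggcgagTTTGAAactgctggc
Cenpf has a single CCAAT box in this stretch and Cenpa a pair of them in the reverse orientation, while Mki67 has TTTGAA in this stretch and Cdk1 holds both kinds. Outside the printed bases, Mki67 holds CCAAT or its reverse 141, 166 and 188 bases before the start, Cenpf holds a further CCAAT 132 bases before it, Cdk1 a further reverse CCAAT 208 bases before it, and Cenpf and Cenpa hold TTTGAA after the start. The deposited annotation places some starts elsewhere than RefSeq, with Cenpa starting at chr5:30666777 and Cdk1 at chr10:69352938. By that annotation most printed Cenpa bases, with both reverse CCAAT boxes, and the last printed Cdk1 bases lie within the gene.

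Over the full RefSeq windows, 250 bases before to 50 after each start, 60 proliferation and 46 non-proliferation members had a sequence. A CCAAT box on either strand stood in 45 proliferation windows (75.0%) and 17 non-proliferation windows (37.0%), against 41.1% of all 27025 genes with a window and 42.5% of the protein-coding genes tested. TTTGAA stood in 24 (40.0%) and 6 (13.0%), against 20.2% of all genes and 14.3% of the tested ones. An E2F motif, searched on both strands as TTTCCCGC, TTTCGCGC, TTTGCCGC or TTTGGCGC, stood in 16 proliferation windows (26.7%), among them Cdk1, Cdk2, E2f2, E2f3 and E2f7, and in 0 non-proliferation windows, against 2.60% of all genes and 4.52% of the protein-coding genes tested. None of the 3 motif sets shares letters that would make one a part of another. By role, TTTGAA stood in 9 of 11 mitotic kinesins, and the helicase genes held CCAAT in 8 of 8 windows and an E2F motif in 5 of 8. A match describes letters in a window and not binding.

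The other centromere and kinetochore genes lay on both sides of 0. Cenpx, a small histone-fold protein of the inner kinetochore, had 15.2, 13.0 and 15.6 CPM in Ang II hearts, against 6.72, 10.7 and 8.63 CPM in control hearts. The groups did not overlap, and the log2 change of 0.75 (SE 0.21) had an edgeR adjusted p of 0.487. It was 0.72 (SE 0.21) without Ang II replicate 1. Cenpo, a subunit of an inner kinetochore complex, had 1.29, 1.54 and 1.29 CPM in Ang II hearts and 3.00, 2.49 and 1.58 CPM in control hearts, and its reads could include those of Adcy3 on the opposite strand. Cenpb had 102, 131 and 126 CPM in Ang II hearts and 108, 104 and 108 CPM in control hearts, so Ang II replicate 1 was the lowest of 6. Of the 16 genes of this role tested, 9 had a log2 change above 0 and 7 below, with a median of 0.10, and without Ang II replicate 1 it was 8 of 18, with a median of −0.03. Cenpe, the kinetochore motor that aligns chromosomes, was among those below 0 (−0.52, SE 0.52), and Cenpm and Cenpu reached more than 0.5 CPM in Ang II replicate 1 alone. Cenpm had 1.10, 0.0569 and 0.155 CPM in Ang II hearts and 0, 0.0601 and 0.218 CPM in control hearts.

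The proliferation markers did not separate the groups. Mki67, a protein that coats mitotic chromosomes and is present in cycling cells, had 4.95, 3.02 and 2.16 CPM in Ang II hearts, against 2.10, 4.50 and 2.27 CPM in control hearts. Top2a, the topoisomerase that untangles replicated DNA, had 2.46, 1.24 and 1.21 CPM in Ang II hearts and 1.84, 2.30 and 0.891 CPM in control hearts. In both genes Ang II replicate 1 was the highest library and the other Ang II hearts lay within the control range. The log2 change of Mki67 was 0.18 (SE 0.42) and that of Top2a −0.04 (SE 0.46), and without Ang II replicate 1 they were −0.20 and −0.45. With standard errors of this size, moderate differences in either direction were not detectable.

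The S and M phase cyclins and Cdk1, the kinase of mitotic entry, did not separate the groups either. Ccna2 had 3.11, 0.967 and 1.12 CPM in Ang II hearts, against 0.875, 1.83 and 1.33 CPM in control hearts. Cdk1 had 2.14, 0.612 and 0.970 CPM in Ang II hearts and 0.657, 1.02 and 0.582 CPM in control hearts. Ang II replicate 1 was the highest of 6 for both, and the other Ang II hearts overlapped the controls. The log2 change was 0.35 (SE 0.53) for Ccna2, 0.57 (SE 0.66) for Ccnb1, −0.04 (SE 0.87) for Ccnb2 and 0.70 (SE 0.53) for Cdk1. Without Ang II replicate 1 these changes were −0.37, 0.36, −0.33 and 0.07.

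Among the Aurora and Bub kinases, Aurka, which matures spindle poles, had 1.36, 0.213 and 0.661 CPM in Ang II hearts and 0.350, 0.706 and 0.618 CPM in control hearts. Bub1b, a spindle checkpoint kinase, had 1.59, 0.768 and 0.646 CPM in Ang II hearts and 0.875, 1.31 and 1.53 CPM in control hearts. Ang II replicate 1 was the highest library for all 4 genes of this role tested, and leaving it out moved the role's median log2 change to −0.33, against 0.35 with it. The mitotic kinesins had a median of 0.26 over 11 genes tested, and −0.11 without that library. Kif15, a spindle motor, was lower in each Ang II heart than in any control heart, with 0.184, 0.228 and 0.211 CPM against 0.263, 0.300 and 0.345 CPM. However, few counts lie behind levels this low, and its log2 change of −0.54 had an SE of 0.53. Kif20b, a motor of late cytokinesis, stood at −0.81 (SE 0.47), and the chromosome-arm motor Kif22 at 1.02 (SE 0.62). Kif20a, which acts at the midzone of the dividing cell, stood at 0.27 (SE 0.47). These 3 stood at −0.55, 0.75 and 0.01 without Ang II replicate 1.

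**Figure D2:**
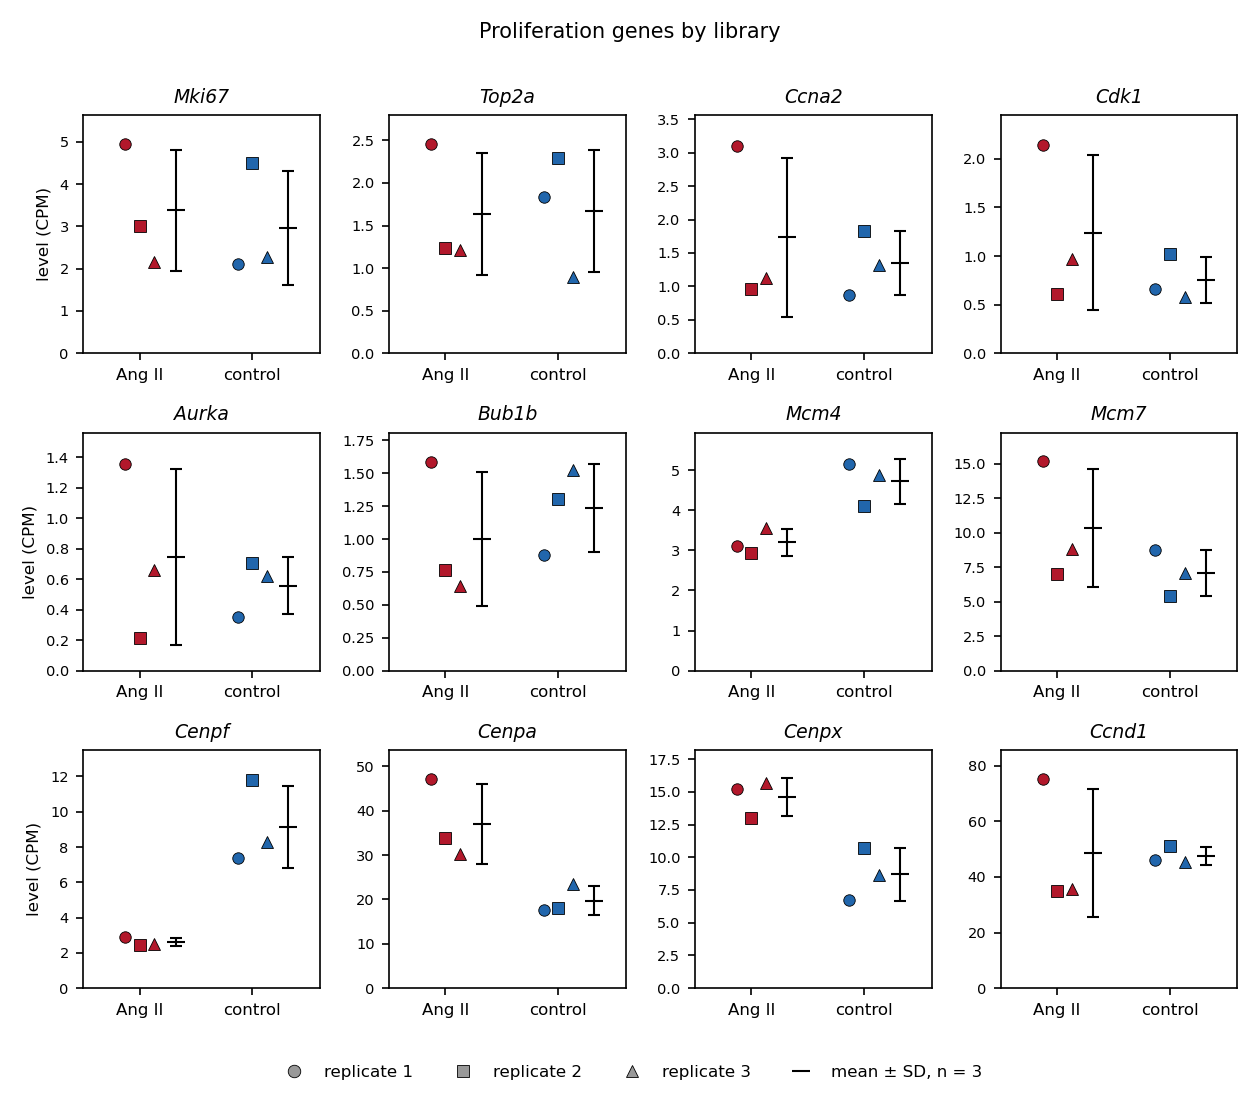
CPM (vertical axes, each from 0) of 12 proliferation genes in the Ang II libraries (left) and the control libraries (right of each panel), with symbols for replicate numbers and bars for mean ± SD of 3 libraries. Cenpf and Mcm4 lie lower and Cenpa and Cenpx higher in all 3 Ang II hearts, while Mki67, Top2a, Ccna2, Cdk1, Aurka, Mcm7 and Ccnd1 are highest in Ang II replicate 1.

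The D cyclins, which respond to growth signals, were the most abundant proliferation cyclins. Ccnd1 had 75.2, 35.0 and 35.7 CPM in Ang II hearts, against 45.9, 51.0 and 45.3 CPM in control hearts. Ang II replicate 1 stood above all controls, and the other Ang II hearts stood below them all. The log2 change was 0.04 (SE 0.32) over 6 libraries, just below 0 in limma on FPKM, and −0.42 (SE 0.10) without Ang II replicate 1, where the edgeR unadjusted p was 0.00489 and the adjusted p 0.138. Ccnd3 had 52.6, 30.1 and 33.4 CPM in Ang II hearts and 34.5, 31.1 and 40.6 CPM in control hearts, a log2 change of 0.13 (SE 0.24). Ccnd2 varied less, with 45.4, 35.4 and 37.6 CPM in Ang II hearts and 38.5, 43.4 and 42.1 CPM in control hearts. Their partner Cdk4 had 41.8, 28.2 and 25.3 CPM in Ang II hearts and 29.4, 26.3 and 39.3 CPM in control hearts, with groups that overlapped. Its relative Cdk6 stood at −0.25 (SE 0.16), and at −0.35 with an edgeR unadjusted p of 0.0234 without Ang II replicate 1. The E cyclin Ccne1, which activates Cdk2 at the start of S phase, stood at 0.65 (SE 0.59), and at 0.11 without Ang II replicate 1.

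The helicase that opens the replication fork is built from Mcm2 to Mcm7. Mcm4 had 3.11, 2.93 and 3.57 CPM in Ang II hearts, against 5.17, 4.10 and 4.89 CPM in control hearts. Every Ang II heart was below every control heart, and the log2 change was −0.56 (SE 0.19; edgeR adjusted p 0.583), or −0.54 without Ang II replicate 1. Mcm7 had 15.2, 7.00 and 8.83 CPM in Ang II hearts and 8.78, 5.44 and 7.07 CPM in control hearts, a change of 0.54 (SE 0.33), or 0.16 without Ang II replicate 1. The groups overlapped, and reads of Mcm7 could include those of Ap4m1 and Cops6, which overlap it on the opposite strand. Of the 6 subunits, 3 had a log2 change above 0 and 3 below, and without Ang II replicate 1 it was 1 above and 5 below. Over all 9 genes of this role, which add the related Mcm8 and Mcm9 and the helicase-activating factor Mcm10, the median was 0.03, and −0.20 without that library.

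Among the E2F factors, E2f4, which with pocket proteins holds cell-cycle genes down in resting cells, was the most abundant, with 14.0 ± 0.884 CPM in Ang II hearts and 15.0 ± 1.06 CPM in control hearts (SD, n = 3 each). E2f3, an activator, had 1.56, 4.96 and 4.78 CPM in Ang II hearts, against 2.54, 2.91 and 2.38 CPM in control hearts. Here Ang II replicate 1 was the lowest of 6 and the other Ang II hearts the highest. The log2 change of E2f3 was 0.53 (SE 0.43) with all libraries and 0.90 (SE 0.17) without Ang II replicate 1, where edgeR gave an unadjusted p of 0.00219 and an adjusted p of 0.104. E2f6, a repressor, had the same order of Ang II libraries, with 1.89, 10.6 and 10.6 CPM against 5.41, 9.61 and 7.20 CPM in control hearts. E2f8, an atypical repressor, had 0.460, 0.299 and 0.478 CPM in Ang II hearts and 0.481, 1.07 and 0.727 CPM in control hearts, without overlap, and a log2 change of −0.88 (SE 0.46), or −0.97 without Ang II replicate 1.

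Among the non-proliferation genes, Ccng1 had 414, 337 and 343 CPM in Ang II hearts, against 226, 272 and 254 CPM in control hearts. No Ang II heart came within the control range. Ccng1 averaged 365 ± 42.8 CPM in Ang II hearts and 251 ± 23.1 CPM in control hearts (SD, n = 3 each), a log2 change of 0.54 (SE 0.16), 1.46-fold higher, with an edgeR adjusted p of 0.529 and a DESeq2 adjusted p of 0.0797. Without Ang II replicate 1 it was 0.44, with an edgeR adjusted p of 0.139. Its relative Ccng2 stood at 0.34 (SE 0.25), and at 0.56 with an unadjusted p of 0.00775 without that library. Ccnl1, a cyclin of the splicing kinases, stood at −0.26 (SE 0.17).

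Of the 8 kinases of transcription and splicing, 7 had a log2 change below 0, the lowest −0.52, and the median was −0.10. When Ang II replicate 1 was left out, 3 of 8 lay above 0 and the median was −0.01. Cdk12, which phosphorylates the tail of RNA polymerase II, had 5.08, 5.05 and 4.79 CPM in Ang II hearts, against 7.29, 6.86 and 7.27 CPM in control hearts. Both groups were tight and did not overlap, and the log2 change was −0.52 (SE 0.15), with an edgeR adjusted p of 0.511, or −0.54 without that library. Cdk11b, the most abundant of them per length, stood at −0.12 (SE 0.16) and Cdk10 at 0.36 (SE 0.33). Among the PCTAIRE and PFTAIRE kinases, Cdk17 had 9.68, 10.5 and 8.94 CPM in Ang II hearts and 12.5, 15.5 and 14.5 CPM in control hearts. Its groups did not overlap, its log2 change was −0.54 (SE 0.16) with an edgeR adjusted p of 0.511 and −0.54 without Ang II replicate 1, and the gene overlaps Elk3 on the opposite strand. Cdk14 stood at −0.60 (SE 0.28). Cdk16, the most abundant of this role per length, had 30.3, 54.2 and 57.0 CPM in Ang II hearts and 36.1, 48.7 and 46.7 CPM in control hearts, so its lowest and highest libraries were both Ang II hearts. Cdk5, a kinase best known from neurons, stood at 0.12 (SE 0.18), and Cdk5rap1, an RNA-modifying enzyme named for its binding to a Cdk5 activator, at 0.19 (SE 0.21).

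Transport and ciliary kinesins, 20 of 26 tested, had 8 members above 0 and 12 below, and 11 of 23 above 0 without Ang II replicate 1. Kif13b, a vesicle motor, had 13.4, 14.9 and 17.1 CPM in Ang II hearts, against 20.0, 26.8 and 19.8 CPM in control hearts. The groups did not overlap, and the log2 change was −0.55 (SE 0.18), with an edgeR adjusted p of 0.571, or −0.47 without Ang II replicate 1. Kif26a, an unusual kinesin without motor activity, had 3.27, 8.45 and 8.53 CPM in Ang II hearts and 10.7, 12.9 and 11.8 CPM in control hearts. Its groups did not overlap either, but Ang II replicate 1 lay far below the rest, and the log2 change was −0.80 (SE 0.36), or −0.48 with an unadjusted p of 0.00978 without it. Kif1c, the most abundant kinesin per length, had 183, 330 and 320 CPM in Ang II hearts and 241, 284 and 263 CPM in control hearts. The Ang II libraries held both its lowest and its highest values, and the log2 change was 0.08 (SE 0.25), or 0.31 with an unadjusted p of 0.0191 without Ang II replicate 1.

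Among the other proteins sharing a symbol stem, Cenpj, a protein of centriole assembly, had 1.24, 2.16 and 1.98 CPM in Ang II hearts, against 3.61, 3.27 and 2.65 CPM in control hearts. The groups did not overlap, and the log2 change was −0.82 (SE 0.28), with an edgeR adjusted p of 0.583, or −0.62 without Ang II replicate 1. Cenpv had 14.5, 9.84 and 11.1 CPM in Ang II hearts and 7.68, 7.87 and 8.91 CPM in control hearts, again without overlap, a change of 0.53 (SE 0.19) and an edgeR adjusted p of 0.593, or 0.36 without that library. Cdk2ap1, which binds Cdk2, had 79.2, 42.5 and 32.6 CPM in Ang II hearts and 43.8, 33.9 and 36.0 CPM in control hearts, and its groups overlapped, with a log2 change of 0.44 (SE 0.33), or −0.01 without that library.

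**Figure D3:**
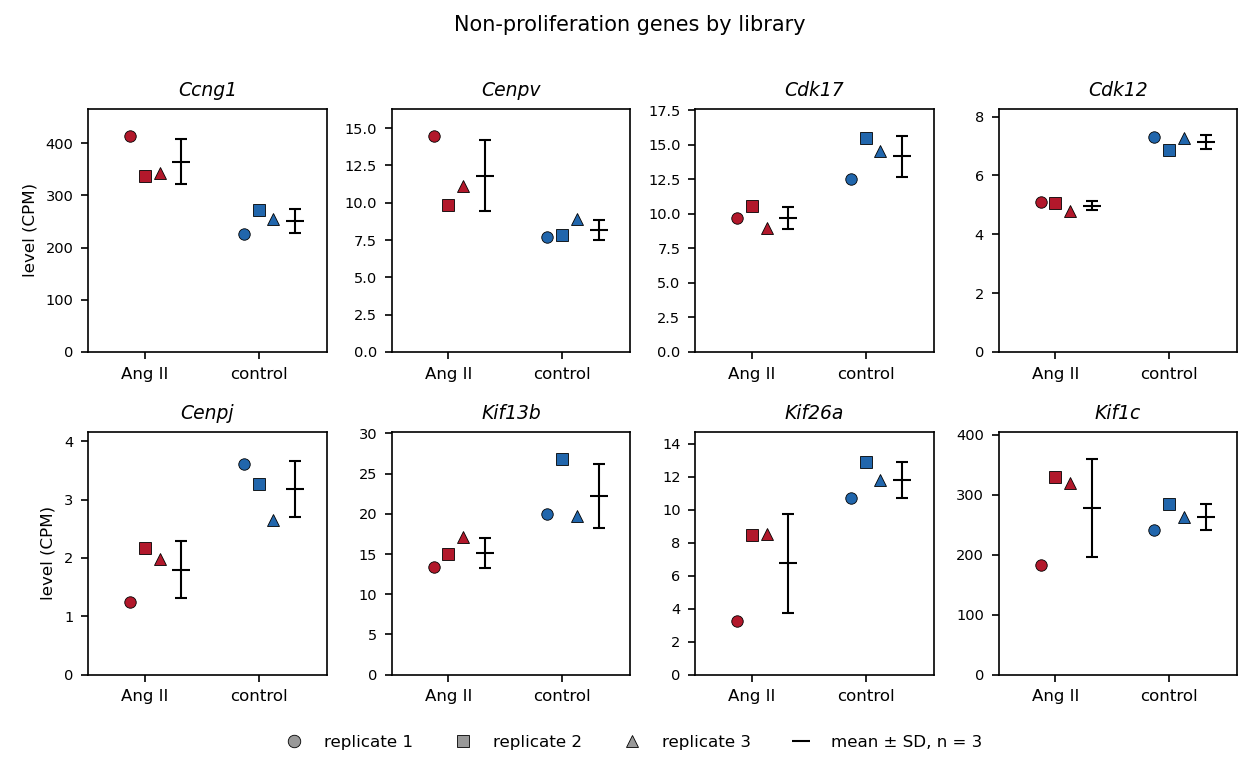
CPM (vertical axes, each from 0) of 8 non-proliferation genes in the Ang II libraries (left) and the control libraries (right of each panel), with symbols for replicate numbers and bars for mean ± SD of 3 libraries. Ccng1 and Cenpv are higher and Cdk17, Cdk12, Cenpj, Kif13b and Kif26a lower in all 3 Ang II hearts, while Kif1c overlaps.

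Counted over all members tested, 4 had every Ang II heart above every control heart (Cenpa, Cenpx, Ccng1 and Cenpv) and 10 had every Ang II heart below. These are 3.64% and 9.09% of members, against 7.97% and 9.21% of all genes tested. The 10 were Cenpf, Cenpo, Mcm4, E2f8 and Kif15 among proliferation genes and Cdk12, Cdk17, Cenpj, Kif13b and Kif26a among the others.

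The typical proliferation gene depended on Ang II replicate 1. In that library the median log2 difference of the 62 tested proliferation genes from their control mean was 0.27, and it was −0.19 and −0.03 in the other Ang II hearts. Control hearts lay at −0.07, 0.07 and 0.01. Each value is a difference from the mean of these same controls, which holds the controls near 0. The spread of the Ang II hearts therefore cannot be compared with that of the controls here. Ang II replicate 1 was the highest of 6 libraries for 31 of 62 proliferation genes (50.0%), against 30.9% of all genes tested, and the lowest for 12 (19.4%). The roles differed in this. Its median was −0.05 for the centromere and kinetochore genes and −0.09 for the E2F factors. In the other proliferation roles it ran from 0.18 (cell-cycle kinases) to 0.61 (proliferation markers). It was the highest library for 31.25% of the centromere and kinetochore genes tested. For the non-proliferation genes the order was the reverse, with a median of −0.24 in Ang II replicate 1, 0.01 and −0.02 in the other Ang II hearts, and 0.00, 0.07 and −0.02 in control hearts. That library was the lowest of 6 for 22 of 48 of them (45.8%), against 32.6% of all genes tested. Here too the roles differed, with a median in that library of 0.65 for the other proteins sharing a symbol stem. The remaining non-proliferation roles ran from −0.52 (PCTAIRE, PFTAIRE and other kinases) to −0.01 (atypical cyclins). The median length of the longest annotated transcript was 3421 bases for proliferation and 4220 bases for non-proliferation genes. The part of length in these values was not tested.

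**Figure D4:**
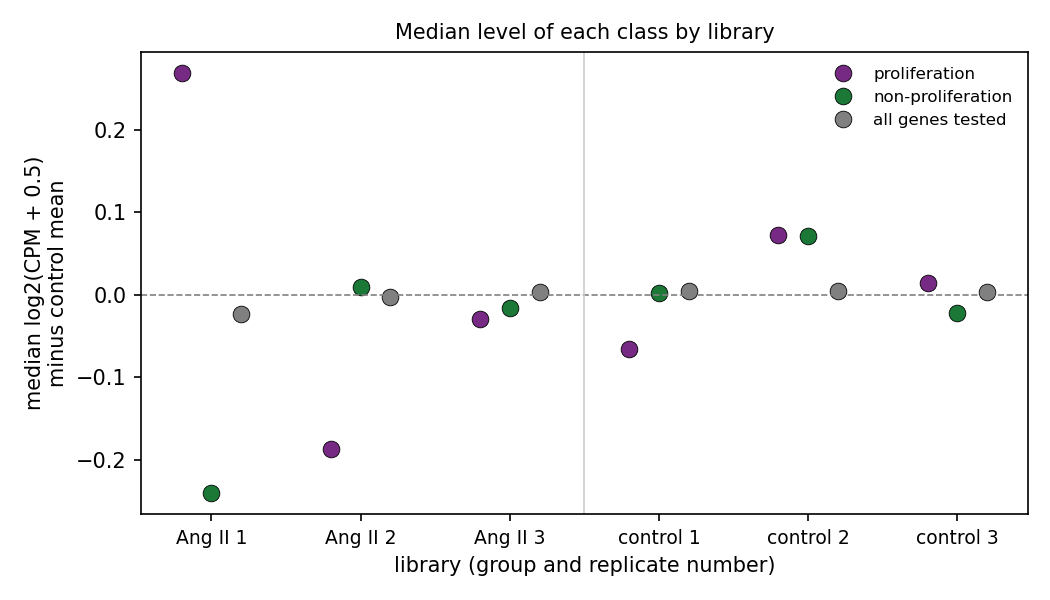
Median difference of log2(CPM + 0.5) from the control mean (vertical) in each library (horizontal, Ang II left of control) for proliferation genes, non-proliferation genes and all genes tested. Proliferation genes lie at 0.27 in Ang II replicate 1 and at −0.19 in Ang II replicate 2, whereas the median of all genes stays near 0.

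Accordingly, 37 of 62 proliferation genes had a log2 change above 0 with all libraries, with a median of 0.10, and 22 of 64 tested without Ang II replicate 1, with a median of −0.20. Of all genes, 50.9% and 48.6% lay above 0. The non-proliferation genes had 21 of 48 above 0 with a median of −0.05, and 22 of 51 with a median of −0.04 without that library. Without it, edgeR called 0.73% of 17661 genes tested (0.527% higher and 0.204% lower), and Cenpf alone among members, as lower. Without adjustment, the same fit gave a p under 0.05 to 5 proliferation genes that lay higher and 4 that lay lower, and to 4 and 6 non-proliferation genes, together 7.83% higher and 8.70% lower of the members tested, against 7.75% and 7.6% of all genes.

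**Figure D5:**
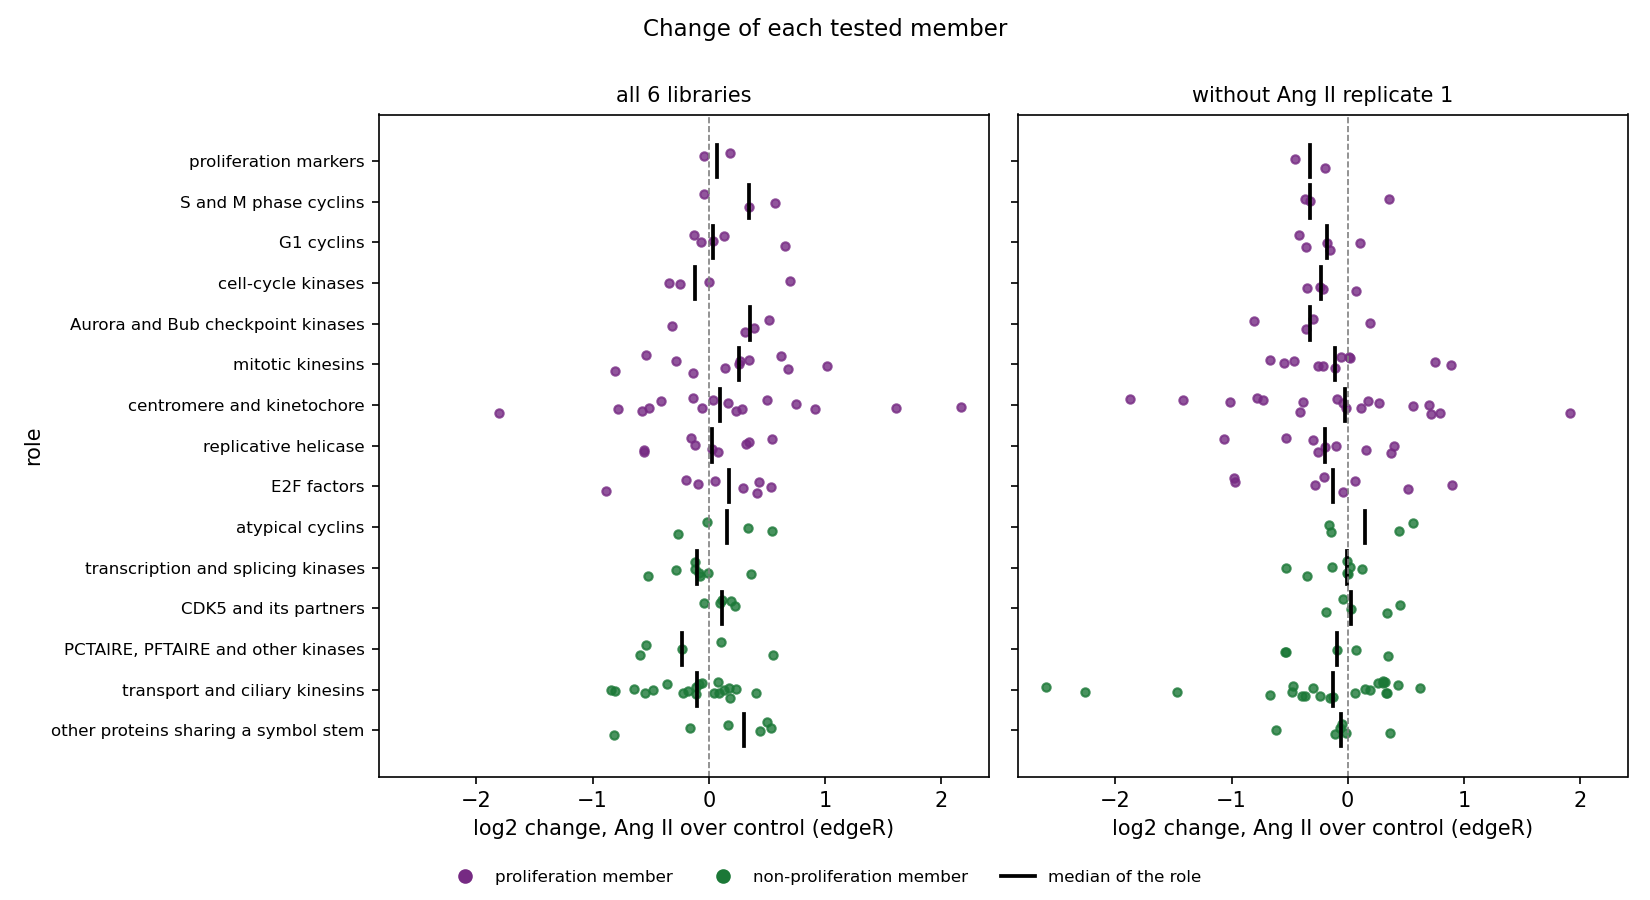
The log2 change of each tested member, Ang II over control, from edgeR (horizontal) by role (vertical) with all 6 libraries (left) and without Ang II replicate 1 (right), with a bar at the median of each role. All 9 proliferation roles have a median below 0 on the right, while 8 of them lie above 0 on the left.

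Cell-type markers also varied with the groups and with this library. Cardiomyocyte markers had 8 of 8 above 0, and 7 of 8 without Ang II replicate 1. Summed endothelial markers were 682, 597 and 598 CPM in Ang II hearts and 812, 800 and 769 CPM in control hearts, without overlap. Of these markers, 7 of 8 lay below 0, and 0 of 8 lay above 0 without Ang II replicate 1. Erythroid markers summed to 594, 444 and 461 CPM in Ang II hearts and 2040, 802 and 1346 CPM in control hearts, with 7 of 7 below 0. Without Ang II replicate 1, 0 of 7 lay above 0. Over all 6 libraries DESeq2 called 2 endothelial and 5 erythroid markers lower, where it called 0.698% of all genes lower. In edgeR 0 of either were called. Leukocyte markers summed to 319, 148 and 162 CPM in Ang II hearts and 192, 216 and 203 CPM in control hearts. The sum was highest in Ang II replicate 1, but that library was the highest for only 4 of the 9 markers tested. Of the 9, 6 lay below 0, and 0 of 9 lay above 0 without that library. Fibroblast markers summed to 328, 577 and 553 CPM in Ang II hearts and 556, 579 and 566 CPM in control hearts, lowest in that library. Of these 8 markers, 2 lay above 0, and 4 without that library. Smooth muscle and pericyte markers overlapped, with 481, 627 and 612 CPM in Ang II hearts and 578, 673 and 591 CPM in control hearts, and neuron and Schwann cell markers stood at 9.83 to 12.7 CPM in Ang II hearts and 10.2 to 12.2 CPM in control hearts, with the defining neuronal genes Rbfox3 and Th at 0 in every library. The part of cell make-up in the members' values was not tested.

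The wider pathway was read from the same fit, and neither edgeR nor DESeq2 called a gene of its 4 lists over the 6 libraries. Of 14 cyclin-dependent kinase inhibitors and pocket proteins, 12 were tested, 5 above and 7 below 0 (8 of 13 above 0 without Ang II replicate 1), with 1 unadjusted p under 0.05. That was the p of Cdkn1a, which encodes the inhibitor p21 and is a p53 target as Ccng1 is. Cdkn1a had 24.7, 38.9 and 38.0 CPM in Ang II hearts, against 21.6, 21.9 and 23.3 CPM in control hearts. All Ang II hearts were above all controls, and the log2 change was 0.60 (SE 0.20) with an edgeR adjusted p of 0.571, or 0.79 (SE 0.09) with an adjusted p of 0.039 without Ang II replicate 1. Rbl1, a pocket protein that binds E2F factors, had 0.644, 1.20 and 1.04 CPM in Ang II hearts and 1.47, 1.76 and 1.58 CPM in control hearts, a change of −0.73 (SE 0.32).

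Of 40 further replication genes, 39 were tested, 26 above and 13 below 0 with a median of 0.10, and edgeR called 0. Without Ang II replicate 1, which was the highest library for 20 of them, 17 of 39 lay above 0 and the median was −0.08. The only unadjusted p values under 0.05 were those of 2 genes that lay lower. They were Cdc45, which joins the MCM ring to make the active helicase (−0.97, SE 0.32), and Rpa3, a subunit of the protein that covers single-stranded DNA (−0.52, SE 0.21). Of 42 further mitosis genes, 40 were tested, 24 above and 16 below 0 with a median of 0.13, with 0 called and 1 gene in each direction under 0.05 before adjustment. With Ang II replicate 1 left out, which was the highest library for 21 of them, 13 of 40 lay above 0 and the median was −0.14. The checkpoint kinase Ttk had 33, 12 and 30 counts in Ang II hearts and 4, 0 and 0 in control hearts, and the condensin subunit Ncapd2 had a log2 change of −0.75 (SE 0.29). Of 12 cyclins outside the symbol rule, 11 were tested, 4 above and 7 below 0 (6 of 12 above 0 without Ang II replicate 1), with no unadjusted p under 0.05. Ccnt2, a partner of Cdk9 in transcription, stood at 0.77 (SE 0.38) and Ccny at 0.17 (SE 0.13).

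In the gene ontology terms deposited with the table, 43 of 69 proliferation genes (62.3%) and 10 of 57 non-proliferation genes (17.5%) carried the term cell cycle, against 3.19% of all genes tested. The term kinetochore was carried by 21 proliferation genes and 1 non-proliferation gene, microtubule motor activity by 13 and 26, and axon by 1 and 10. The division by textbook role therefore also showed in the annotation, although both draw on the same literature. Some members are neighbours: Cdk7, Cenph and Ccnb1 lie within chr13:100702631-100786570 (GRCm38), with 28735 and 2751 bases between them. Of the 3, Cdk7 stood at −0.07 (SE 0.17), Ccnb1 at 0.57 (SE 0.66), and Cenph was not tested.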

How the data were processed

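Poly-A RNA from 6 mouse hearts was sequenced. The submitters' processing notes name Bowtie 0.12.2, HISAT2 2.0 and StringTie 1.3.0 without their roles. The build they name is mm8. Of the IDs also found in GENCODE M21, 51920 of 55141 (94.2%) and 105 of the 126 members had exactly the GRCm38 position, and positions are printed on GRCm38. The authors' FPKM values, normalised to transcript length and depth, were taken unchanged; they hold 0.0001 where the count is 0. The authors' estimated count values, deposited as whole numbers, were tested with edgeR 4.0.16 in R 4.3.3 (quasi-likelihood, two-sided, trimmed mean of M-values scaling, filterByExpr, Benjamini-Hochberg over all genes, threshold 0.05). Estimated counts are not raw counts, so the fitted spread is approximate. Standard errors were derived from the log2 change and test statistic. Alternatives were DESeq2 1.42.0, limma 3.58.1 on log2(FPKM + 0.5) or log2(FPKM + 0.1) for genes of at least 0.5 FPKM in 3 libraries, other scalings and filters, a replicate block and each library left out. The test was tried on simulated counts with a smaller spread than these data. That trial does not measure what could be detected here. Figures used matplotlib 3.10.9 in Python 3.11.15.

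The 3 mice per group are separate animals per the series design. The symbol rule for members uses no measured value, but the members, roles and lists were chosen with earlier results of these data known. Genes were named by a rule: Mki67, Top2a and called members, in each role the 2 members with the smallest unadjusted p and the one with the highest mean FPKM, and the 2 genes with the smallest p of each pathway list. Members outside it were named after their values were seen. Promoter windows of RefSeq (GRCm38.p6) were matched by symbol, with 106 of 126 members found, 12 of them with more than 1 window.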

Additional observations from a re-analysis of the deposited data

How the results depend on the processing

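With all libraries edgeR called 6 genes. It called 12 with no filter and 10 with at least 10 counts in every library, DESeq2 called 276, limma called 3 with a pseudocount of 0.5 and 2 with 0.1, and leaving out a library in turn gave 0 to 129, the highest without Ang II replicate 1. Proliferation members called were 0 in edgeR, 2 in DESeq2, and 0 to 1 with a library left out. Non-proliferation members called were 0 in edgeR, DESeq2 and limma under every setting run, with 1 to 2 higher and 0 to 5 lower at an unadjusted p under 0.05 over all 6 libraries (limma covered 34 of them). The median log2 change of proliferation members, 0.10, ranged from −0.20 (without Ang II replicate 1) to 0.17 with a library left out, and that of non-proliferation members from −0.09 to −0.02.

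Same-numbered libraries did not all deviate together: their correlations across genes were 0.08, 0.11 and −0.04, while Ang II replicates 1 and 2 correlated best with the control of their own number and Ang II replicate 3 with control replicate 2. A fit that took these numbers as a block called 0 genes, and Cenpf had an adjusted p of 0.469.

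Of the named genes, 12 changed sign under some setting, and none of them was called. Ccnd1 stood at −0.0087 and −0.0095 in limma with pseudocounts of 0.5 and 0.1 and at −0.062 under the block, and Cdk4 at −0.0019 with mitochondrial genes and copies left out and −0.0082 under the block. With a library left out, log2 changes ranged from −0.20 to 0.62 for Mki67, −0.45 to 0.26 for Top2a, −0.36 to 0.84 for Aurka, −0.043 to 0.24 for Cdk5, −0.16 to 0.28 for Ccnd3, −0.42 to 0.23 for Ccnd1, −0.051 to 0.35 for Cdk16, −0.37 to 0.64 for Ccna2, −0.24 to 0.18 for Cdk4, −0.0091 to 0.63 for Kif20a, −0.012 to 0.68 for Cdk2ap1 and −0.063 to 0.31 for Kif1c. Cenpf ranged from −1.94 to −1.58 and Cenpa from 0.70 to 1.05. The causes were not tested.

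At these depths 22 proliferation and 12 non-proliferation members stayed under 1 CPM in every library, where counting error is largest.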

Other observations

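Rows with a matching symbol that are not protein-coding were counted apart from the members. The pseudogene Ccnb2-ps had 8, 59 and 20 estimated counts in Ang II hearts and 22, 54 and 41 in control hearts. Cdk3, annotated as a polymorphic pseudogene, had 8, 0 and 4 in Ang II hearts and 18, 19 and 18 in control hearts. Its counts in Ang II hearts lay below those of every control heart, and its test result is not given here. In CPM, 9.21% of all genes tested had every Ang II heart below every control heart.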
